A study of Mus musculus with 6 samples.

Results

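Abcg1, which exports sterols, and Idi1, which helps to make them, were compared between ventricles that lacked miR-125b-1 in their cardiomyocytes (knockout) and wild-type ventricles at postnatal day 1 (P1). Every probe set of the table that the platform annotation gives to either gene was kept, and since the table holds only probe sets that differ between the groups, any with a smaller difference is not seen here. This yielded 3 of the 271 probe sets analysed here, with 2 for Abcg1 and 1 for Idi1, or 2 of the 215 genes that the table names. The 2 genes were selected on their difference between the knockout and wild-type arrays, so that difference is given as a description with no test. Both groups carried aMHC-Cre, in which the Myh6 promoter drives the recombinase in cardiomyocytes. The 3 wild-type arrays were labelled aMHC-Cre; 125b1+/+ and the 3 knockout arrays aMHC-Cre; 125b1f/f. RNA came from whole ventricles, so cells in which Cre is not active were measured with the cardiomyocytes, and fewer cells of a type cannot be told apart from less RNA per cell. The miR-125b-2 locus was not targeted in either group. The labels and methods do not say whether an array holds 1 pup or several, and the spread reported here is the spread between these arrays.

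Cholesterol is made from acetyl-CoA through mevalonate, and Idi1, the isopentenyl diphosphate isomerase, interconverts the 5-carbon isoprenoid units from which sterols, ubiquinone and prenyl groups are built. The enzymes of this route are switched on together by SREBP2 when sterols are scarce. Abcg1, an ATP-binding cassette half-transporter, moves cholesterol and oxysterols out toward lipoproteins. It is a classical target of the liver X receptors (LXR), which are activated by oxysterols, and is best known in macrophages.

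The deleted microRNA gene encodes the strand shown here, in which capitals mark the seed (bases 2 to 8). It is shown because the compared groups were bred to differ in this gene. The paper reports that mature miR-125b was reduced, not absent, in knockout neonatal hearts. It proposes that the rest could derive from miR-125b-2 or from other cell types. RefSeq (GRCm38.p6) places it at chr9:41581940-41581961 on the plus strand for Mir125b-1 and at chr16:77646279-77646300 on the plus strand for Mir125b-2, with the same 22 bases at both loci.
mmu-miR-125b-5p: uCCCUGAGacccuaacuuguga

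The start region of Idi1 is printed because factors that control sterol synthesis bind close to gene starts. Idi1 lies at chr13:8885606-8892396 (GRCm38.p6), and the window runs from 250 bases before to 50 bases after its annotated start, at chr13:8885356-8885655 on the plus strand. Capitals mark ATTGG, which is CCAAT on the other strand, the letters bound by NF-Y, a partner of SREBP.
Idi1 promoter: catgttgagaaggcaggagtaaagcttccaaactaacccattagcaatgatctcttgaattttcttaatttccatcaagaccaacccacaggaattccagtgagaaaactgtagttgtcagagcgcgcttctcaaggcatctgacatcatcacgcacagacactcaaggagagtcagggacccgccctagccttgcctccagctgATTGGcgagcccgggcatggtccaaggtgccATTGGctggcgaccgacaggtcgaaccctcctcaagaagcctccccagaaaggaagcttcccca
The window has a GC content of 52.3% and holds CCAAT at 2 places, starting 45 and 14 bases before the gene start. Searched on both strands, CCAAT occurs at least once in 37.4% of the 32851 RefSeq promoter windows of this length, and at 2 or more places in 11.7%. GGGCGG, a GC box, occurs once in the Idi1 window, starting 69 bases before the gene start, and in 35.7% of all windows. CACGTG, an E-box, and TCACCCCAC, a core of the sterol regulatory element, were not found in these letters of Idi1, and are in 7.15% and 0.551% of all windows. None of the motifs overlaps another in the window. These matches describe the sequence only. Abcg1 lies at chr17:31057694-31117984 and Cyp27a1 at chr1:74713148-74737897.

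The intensity of Abcg1 was higher in every knockout array than in any wild-type array on both of its probe sets in the table. On 1423570_at, the brighter of the pair, the wild-type arrays read 107, 111 and 102, and the knockout arrays 432, 372 and 367 on the linear scale of the deposited intensities. The lowest knockout array was 3.31-fold above the highest wild-type array, while arrays of one group differed by at most 1.18-fold. The group means were 107 ± 4.24 and 390 ± 36.5 (SD, n = 3 each), and the log2 fold change, knockout minus wild-type, was 1.87 with a standard error of 0.11 from limma, or 3.65-fold. Of the 183 probe sets with a higher intensity in the knockout, 38 had a larger log2 fold change.

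On 1455221_at, the dimmer probe set of Abcg1, the wild-type arrays read 53.1, 43.9 and 50.2, and the knockout arrays 101, 102 and 129. The groups did not overlap here either, as for every probe set of the table. The lowest knockout array was 1.90-fold above the highest wild-type array, with up to 1.28-fold between arrays of a group. Means were 49.1 ± 4.73 and 111 ± 16.1 (SD, n = 3 each), a log2 fold change of 1.17 (standard error 0.12) or 2.25-fold. In the wild-type this probe set was near the bottom of the table, with 18 of the 271 probe sets dimmer. No detection calls were used here, so whether it stood above background in the wild-type is not known.

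These probe sets of Abcg1, both of which had passed the selection of the table, shared a direction and differed in size, by 0.70 on the log2 scale. In every knockout array the brighter probe set had moved further from its wild-type mean than the dimmer one had from its own, by 0.98, 0.74 and 0.38 on the log2 scale, against -0.12, 0.21 and -0.10 in the wild-type arrays. Among the 32 genes with several probe sets in the table the range of log2 fold changes had a median of 0.20 and reached 1.20, and 5 genes had a wider range than Abcg1. Abcg1 was one of 11 of these 32 genes in which the brightest probe set had the largest change. Which transcripts of Abcg1 each probe set reads was not examined here.

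The intensity of Idi1 was lower in every knockout array than in any wild-type array, and groups were likewise apart for every probe set of the table. Its probe set 1451122_at read 359, 346 and 343 in the wild-type arrays and 155, 139 and 134 in the knockout arrays. The lowest wild-type array was 2.22-fold above the highest knockout array, and arrays of one group differed by at most 1.16-fold. Means were 349 ± 8.66 and 142 ± 10.9 (SD, n = 3 each), a log2 fold change of -1.30 (standard error 0.11), which is 2.46-fold lower. Among the 88 probe sets that were lower in the knockout, 46 had a larger change, so Idi1 stood close to the middle of them.

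**Figure D1:**
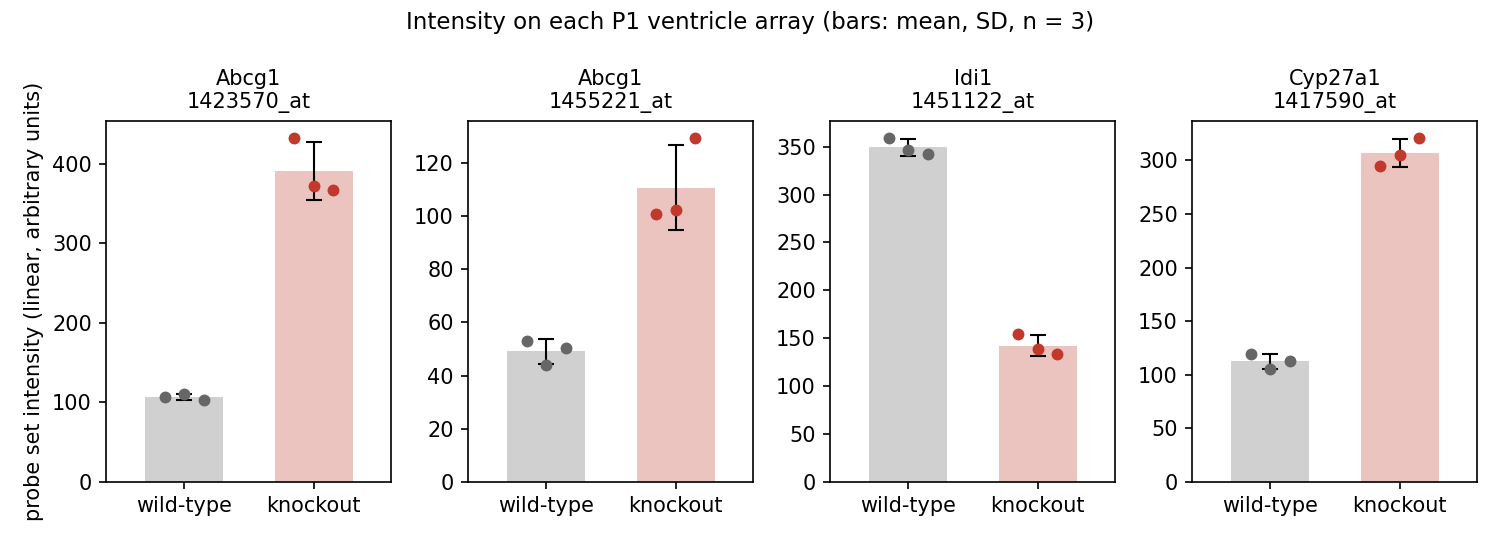
Probe set intensity (linear scale, starting at 0; each panel has its own axis) for Abcg1, Idi1 and Cyp27a1 on 3 wild-type (grey) and 3 knockout (red) ventricle arrays, with bars for the mean and error bars for the SD. The groups are apart in all 4 panels, as they are for every probe set of the table. The knockout is lower in Idi1 and higher in the others, and the knockout points of the dimmer Abcg1 probe set run from 101 to 129.

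These differences were read against the whole table, which is itself a selection made on the same arrays. Its smallest difference between group means was 1.00 on the log2 scale, and the member closest to that edge was the dimmer Abcg1 probe set, 0.17 above it, while Idi1 was 0.30 and the brighter Abcg1 probe set 0.87 above it. With limma all 3 member probe sets passed an adjusted p under 0.05, and so did 100% of the 271 probe sets. Of all probe sets 67.5% were called higher in the knockout, the side of both Abcg1 probe sets, and 32.5% lower, the side of Idi1. Passing the threshold therefore says nothing particular about Abcg1 or Idi1. The same limit holds for groups that do not overlap. In each of the 271 probe sets the group means lay too far apart, relative to the spread within groups, for any overlap. Over the table the median SD of log2 intensity was 0.13 in the wild-type and 0.12 in the knockout, against a smallest difference of 1.00. Groups apart from each other are shared by the whole table, and are not a trait of Abcg1, Idi1 or Cyp27a1. The median log2 fold change was 1.41 among the higher probe sets and -1.31 among the lower ones, so that one Abcg1 probe set lay above and one below the median of its side.

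**Figure D2:**
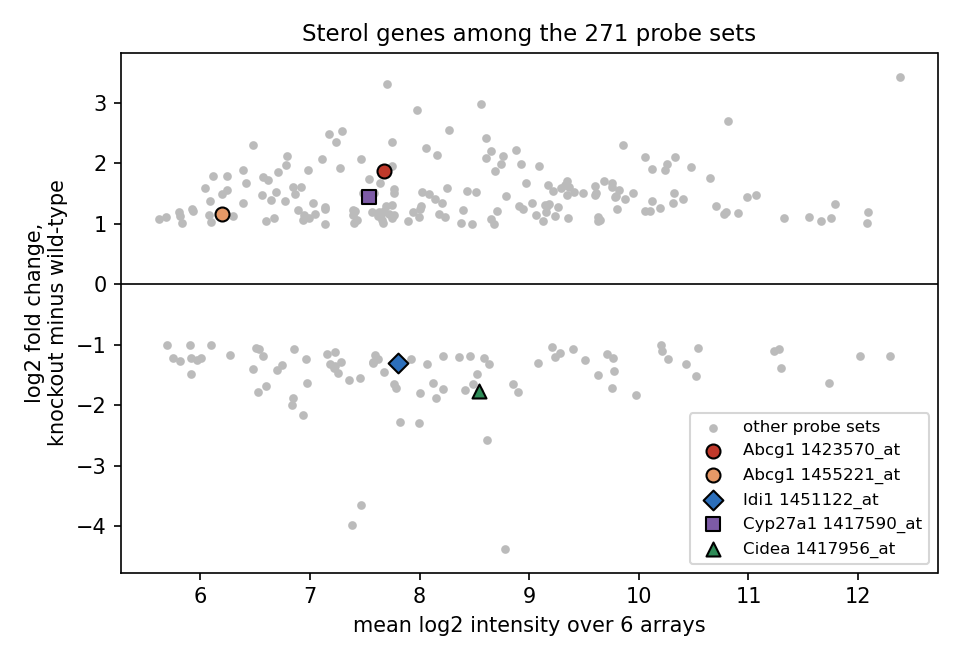
Log2 fold change, knockout minus wild-type, against mean log2 intensity over the 6 arrays for the 271 probe sets (grey), with Abcg1, Idi1, Cyp27a1 and Cidea in colour. No point lies within 1.00 of the zero line, the brighter Abcg1 probe set stands at 1.87, its dimmer probe set at 1.17 and Idi1 at -1.30.

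The zero of the fold changes depends on the scaling of the arrays, which selected probe sets cannot settle. The median of the table was 0.54 higher on the log2 scale in the knockout arrays, by 0.48 to 0.58 per array. As 183 of the selected probe sets were higher and 88 lower, this median is not a measure of overall array brightness. Centring each array on its median brought the log2 fold changes of Abcg1 to 1.33 and 0.63 and that of Idi1 to -1.84. Abcg1 stayed higher and Idi1 lower in the knockout, but the dimmer Abcg1 probe set then had a smaller difference than the table's smallest as deposited.

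The change of Abcg1 relative to Idi1 within an array is free of such scaling, since a factor applied to a whole array drops out. Set to 0 at the wild-type mean, the log2 ratio of the brighter Abcg1 probe set to Idi1 was -0.04, 0.07 and -0.03 in the wild-type arrays and 3.19, 3.13 and 3.17 in the knockout arrays. The knockout mean was 3.17 ± 0.030 (SD, n = 3), an 8.97-fold shift of one gene against the other. A shift of this kind is given by the selection, since every probe set of the table differed by at least 1.00. Any higher gene therefore moves against any lower one, and the medians of the sides were 1.41 and -1.31. The ratio is a description only. In the knockout this SD was smaller than that of either gene alone, 0.13 for Abcg1 and 0.11 for Idi1 on the log2 scale, but in the wild-type the SD of the ratio, 0.061, was larger than those of the genes alone, 0.057 and 0.036. Knockout replicate 1 was the highest knockout array for this Abcg1 probe set and for Idi1, and also had the highest median over the table, at 358 against 354 and 334. With the dimmer Abcg1 probe set the same ratio was 2.22, 2.39 and 2.79 in the knockout arrays, with an SD of 0.29 that was larger than those of that probe set (0.20) and Idi1 alone, and here replicate 1 was the lowest.

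The other genes of sterol metabolism were looked up in 5 lists that hold 108 genes. Abcg1, Idi1 and Cyp27a1 are the 3 of them with a probe set in the table, and the other 105 are not analysed here. Of 22 genes of cholesterol synthesis, Idi1 was in the table and lower. Of 22 genes of sterol export and LXR response, Abcg1 was in the table and higher. The lists for sterol sensing by SREBP (16 genes) and for the isoprenoid branches that follow Idi1 (21 genes) had no member in it. A single member does not describe a pathway.

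In the list headed sterol uptake, esterification and intracellular transport (27 genes), the member in the table was Cyp27a1, an enzyme that modifies sterols. It encodes the mitochondrial sterol 27-hydroxylase, which makes 27-hydroxycholesterol, one of the oxysterols that activate LXR. Its probe set 1417590_at read 120, 105 and 113 in the wild-type arrays and 295, 305 and 321 in the knockout arrays. The groups did not overlap, as for every probe set of the table, and the lowest knockout array was 2.46-fold above the highest wild-type array. Means were 113 ± 7.17 and 307 ± 13.1 (SD, n = 3 each), a log2 fold change of 1.45 (standard error 0.11) or 2.73-fold. Within the arrays the brighter Abcg1 probe set moved further than Cyp27a1 by 0.63, 0.36 and 0.27 on the log2 scale in the knockout, with -0.09, 0.15 and -0.06 in the wild-type. The dimmer Abcg1 probe set, with a log2 fold change of 1.17, moved less than Cyp27a1. Cyp27a1 moved against Idi1 by 2.57, 2.77 and 2.90.

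Markers of other cells of the ventricle were listed because Abcg1 is abundant in macrophages and vessels. None of the 12 macrophage, 10 endothelial, 11 fibroblast and smooth muscle or 10 ventricular cardiomyocyte markers has a probe set in the table, so neither the tissue label nor the cell makeup could be checked against them. Of 8 adipocyte markers Cidea, a lipid droplet protein of brown fat, was the single one in the table. It read 687, 671 and 698 in the wild-type arrays and 193, 193 and 223 in the knockout arrays, which is 3.38-fold lower (log2 fold change -1.76). Its direction was that of Idi1 and opposite to that of Abcg1. The part of adipose tissue on the ventricles in these results was not tested.

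The genes whose profile over the 6 arrays was closest to each member were found by the root mean square difference of log2 intensities, each profile centred on its own mean. The brighter probe set of Abcg1 was closest to Snhg6, a noncoding snoRNA host, at a distance of 0.091, followed by Glul, the glutamine synthetase, at 0.098 and Pnpla7, a lysophospholipase, at 0.10. Odf2 and Zfas1 came next, at 0.12 and 0.14, and the median distance was 0.32 over the 142 other named genes that were also higher in the knockout. The log2 fold changes of the 5 genes were 1.67 to 1.99. Only the brightest probe set of each gene was compared. The 2 probe sets of Glul differed by 1.04 in log2 fold change, and the dimmer one, at 2.97, was not close to Abcg1. Idi1 was closest to Sertad4, at a distance of 0.029, with a log2 fold change of -1.35. Sertad4 read 247, 238 and 236 in the wild-type arrays and 102, 91.2 and 89.8 in the knockout arrays, in the same order of arrays as Idi1 within each group. The medians of the whole table, 243, 239 and 237 in the wild-type arrays and 358, 354 and 334 in the knockout arrays, ran in that order too. Dysf, the membrane repair protein dysferlin, Vtn, the adhesion protein vitronectin, and the fatty acid genes Hsdl2 and Acaa2 followed at 0.065 to 0.088, against a median distance of 0.16 over the 71 other named genes that were also lower in the knockout. The Acaa2 probe set, whose name ends in _s_at, has probes that match more than one transcript. The distance takes in the size of the difference between the groups as well as the spread within them, and these genes are named as a description.

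**Figure D3:**
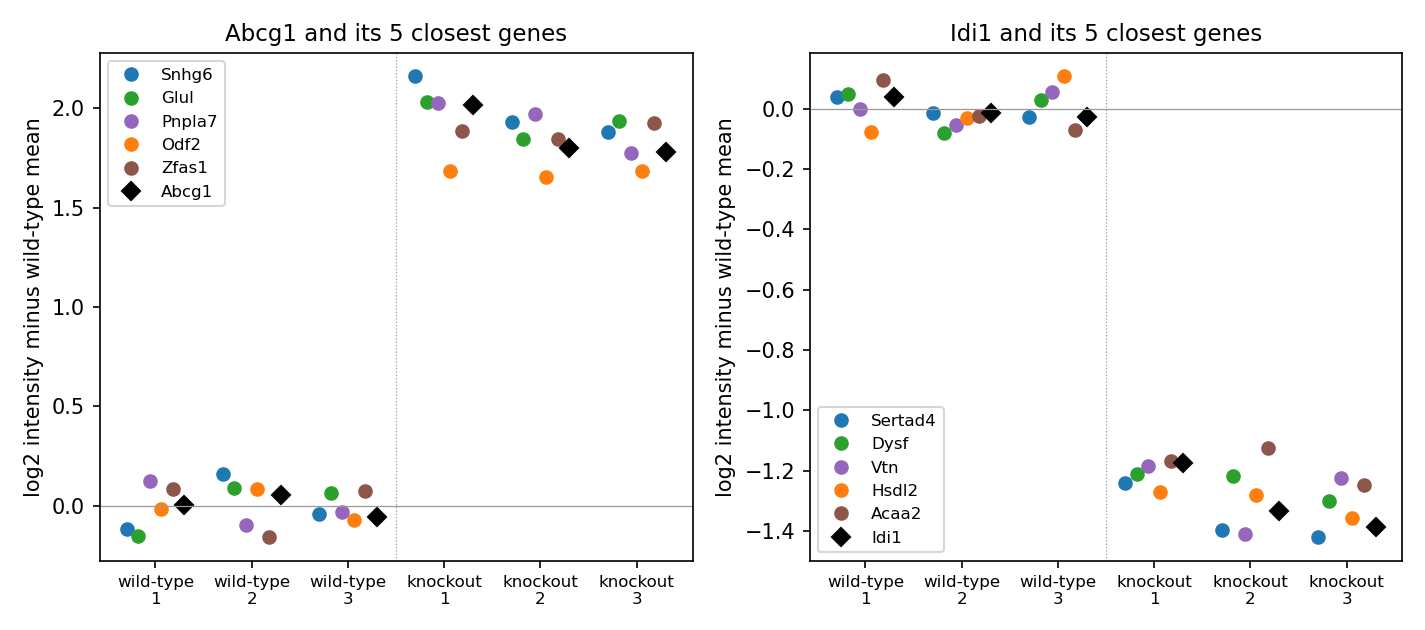
Log2 intensity minus the wild-type mean on each of the 6 arrays for the brighter Abcg1 probe set (left) and Idi1 (right), as black diamonds, with their 5 closest genes as coloured points; replicates have no order. The knockout points sit near 1.87 for Abcg1 and -1.30 for Idi1.

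**Figure D4:**
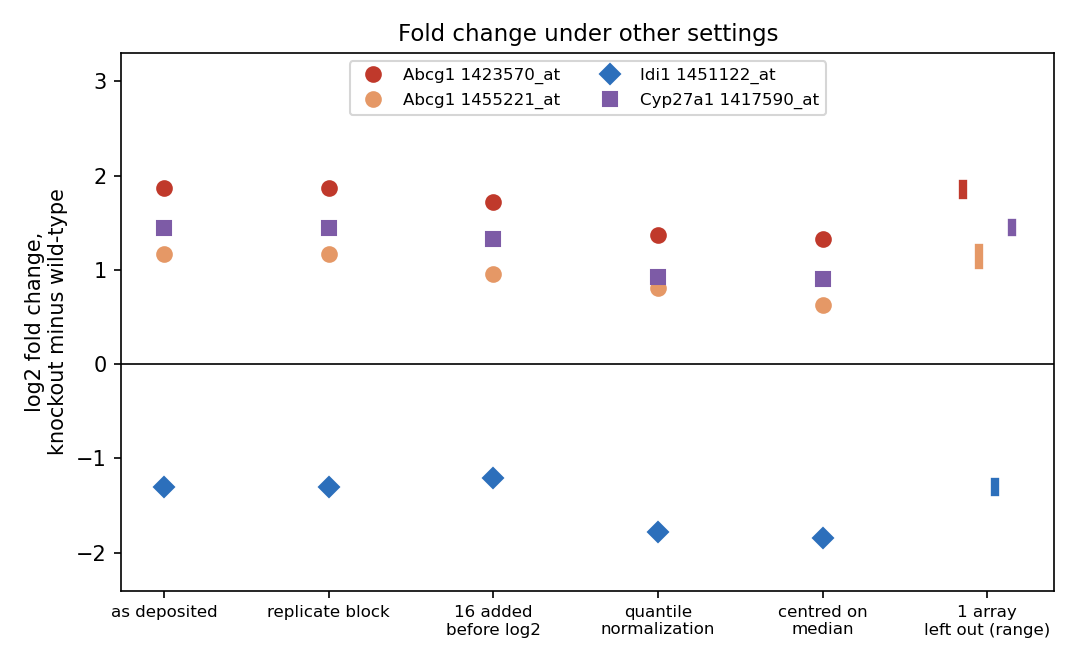
Log2 fold change, knockout minus wild-type, of the Abcg1 probe sets, Cyp27a1 and Idi1 with the values as deposited and under other settings, with the range over leaving out 1 array at the right. Each stays on its side of zero under the settings plotted, while quantile normalization and median centring lower all 4, to 1.33 and -1.84 for the brighter Abcg1 probe set and Idi1 with centring.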

How the data were processed

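RNA from P1 ventricles was hybridised to Affymetrix Mouse Genome arrays, 3 per group. The authors deposited linear intensities for probe sets, here from 30.1 to 18292. They used GeneSpring GX, and the summarization and normalization are not given in the sources used here. The table analysed holds 271 probe sets, all past a log2 difference of 1.00, so it is selected on these arrays. The number of arrays limits the precision. Probe sets were named by the platform annotation and updated by gene number in RefSeq (GRCm38.p6), where all 253 with a single gene matched. A further 3 carried several genes and 15 none, and were not named.

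The log2 of each intensity was fitted by group in limma 3.58.1 (lmFit, eBayes; R 4.3.3). P-values were adjusted over all 271 probe sets by the method of Benjamini and Hochberg, and 0.05 was the threshold. Standard errors may be too small, because their variance prior was learned on a selected table. The script was tested on simulated data with known changes. Those data were not selected on a difference, so the test says nothing about the calls or standard errors of a selected table. Counts and profiles used Python 3.11.15 with pandas 2.3.3. The genes named were Abcg1 and Idi1, listed genes found in the table, and the 5 closest profiles for each, by brightest probe set. The members and lists were chosen with earlier results of these data known. Alternatives were the methods' t-test, trended and robust eBayes, quantile normalization, median centring, leaving out the dimmest 25% of probe sets or those ending in _x_at or _s_at, a replicate block, 16 added before log2, leaving out each array, and the mean over a gene's probe sets.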

Additional observations from a re-analysis of the deposited data

How the results depend on the processing

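No alternative turned the direction of Abcg1 or Idi1, but most of them could not have done so. Leaving out 1 array cannot turn it where the groups do not overlap. Median centring moved the zero by 0.54, less than the table's smallest difference of 1.00. For the brighter and the dimmer Abcg1 probe set and Idi1 in that order, the log2 fold changes were 1.37, 0.80 and -1.78 after quantile normalization, 1.33, 0.63 and -1.84 with median centring, and 1.72, 0.96 and -1.21 with 16 added before log2, against 1.87, 1.17 and -1.30 as deposited. The mean over both probe sets of Abcg1 was 1.52. Leaving out 1 array at a time gave 1.79 to 1.91, 1.05 to 1.23 and -1.36 to -1.25. The dimmer Abcg1 probe set was among the dimmest 25% of probe sets and has no value when these are left out. For Cyp27a1 the values were 0.92 and 0.91 with the first pair of settings, in place of 1.45. The change of the brighter Abcg1 probe set relative to Idi1 was 3.15 after quantile normalization and 3.17 as deposited. It is not free of a constant added to the intensities. With 16 added before log2 it was smaller, as both fold changes shrank, to 1.72 and -1.21.

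The counts of called probe sets were 183 higher and 88 lower under each scaling, test and left-out array, 139 and 64 without the dimmest 25%, and 153 and 76 without probe sets ending in _x_at or _s_at. With the replicate block the counts were again 183 and 88 and the log2 fold changes were the same, as a balanced design fixes. For arrays with the same number, the deviations from the group means correlated at -0.016, 0.0073 and 0.084 across probe sets. Arrays with different numbers gave -0.15 to 0.12. On a table selected in this way, these values do not show whether arrays with the same number were paired. Since the table is selected, none of this shows how the calls would stand on a whole array. Signal over background was not measured here.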
